A study of Mus musculus with 16 samples.

Results

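Isolated TSS windows were windows around transcription start sites (TSSs) that had no other annotated window nearby. The deposited table holds windows of 5000 bp around TSSs, and a distinct autosomal window was a member when its start lay more than 100000 bp from the start of every other distinct window on the same chromosome. The rule used positions only and no measured value. It found 2359 of 35043 distinct autosomal windows (6.73%) and left 32684 other windows. The nearest other window was a median of 160592 bp away from a member (quartiles 123624 and 237342 bp), against a median of 11718 bp for the other windows. For 808 members the distance exceeded 200000 bp, for 104 it exceeded 500000 bp, and the widest was 1394753 bp.

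The chromatin of mouse embryonic stem cells was profiled by ATAC-seq, whose transposase cuts and tags DNA wherever it is not wrapped in nucleosomes. The 8 groups were 4HT-treated and EtOH-treated cells, each in the 4 fractions named G1, ES, LS and G2, which had been sorted on DNA content stained with DAPI. All 8 groups share the genotype label FOXD3-iKO, the L2i medium and a treatment time of 24 h, and 4HT (tamoxifen) served to deplete FOXD3, a forkhead factor known from the early embryo and the neural crest. Each group comprised 2 libraries, 16 in all, but the deposited tables give 1 pooled column for each group, so no value below has an SD over libraries. ES and LS are the names in the labels, which do not expand them, and neither the removed part of Foxd3 nor the clonality of the line is stated.

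Mammalian genes are unevenly spread: some chromosome bands are dense with short, widely expressed genes, whereas gene-poor stretches hold long genes for cell adhesion, neuronal signalling and developmental control together with the distal elements that regulate them. About the start site of many genes lies a CpG island, a stretch rich in the dinucleotide CG that is usually unmethylated and open in embryonic stem cells whether or not the gene is transcribed. Promoters poor in CG tend to belong to tissue-specific genes and open only where those genes are active.

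The promoters of 7 isolated genes show the span of these sequences. They run from 250 bases before to 50 bases after the annotated start, read 5′ to 3′ on the gene's strand, and come from RefSeq on build GRCm38.p6 (mm10), with each CG in capitals. Tle4, a Groucho-family corepressor at chr19:14598134-14598433 on the minus strand, had the highest level among isolated windows named after a gene and holds 28 CG. Pcdh17, a protocadherin at chr14:84443313-84443612 on the plus strand, and Cntnap2, a neurexin-related adhesion protein at chr6:45059811-45060110 on the plus strand, are among the most isolated named genes and hold 26 and 14 CG. Col3a1, a fibrillar collagen at chr1:45311288-45311587 on the plus strand, holds 0 CG.
Tle4: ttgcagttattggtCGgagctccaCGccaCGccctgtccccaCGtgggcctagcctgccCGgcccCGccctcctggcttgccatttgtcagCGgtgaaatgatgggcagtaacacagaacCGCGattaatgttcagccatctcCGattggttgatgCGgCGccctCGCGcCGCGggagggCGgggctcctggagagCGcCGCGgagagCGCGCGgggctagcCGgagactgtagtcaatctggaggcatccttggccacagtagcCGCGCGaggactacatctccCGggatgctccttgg
Pcdh17: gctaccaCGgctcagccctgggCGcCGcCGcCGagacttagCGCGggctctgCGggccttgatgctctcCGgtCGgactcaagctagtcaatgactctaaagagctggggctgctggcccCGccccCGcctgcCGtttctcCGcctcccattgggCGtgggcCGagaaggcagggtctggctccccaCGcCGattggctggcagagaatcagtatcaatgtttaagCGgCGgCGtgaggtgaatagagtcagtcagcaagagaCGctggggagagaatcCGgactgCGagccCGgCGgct
Cntnap2: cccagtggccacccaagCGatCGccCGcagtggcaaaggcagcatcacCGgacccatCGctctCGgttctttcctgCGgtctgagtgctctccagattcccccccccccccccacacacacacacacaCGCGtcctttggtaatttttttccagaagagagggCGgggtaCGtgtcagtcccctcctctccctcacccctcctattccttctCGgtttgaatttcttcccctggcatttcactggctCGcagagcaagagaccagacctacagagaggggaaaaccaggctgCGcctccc
Col3a1: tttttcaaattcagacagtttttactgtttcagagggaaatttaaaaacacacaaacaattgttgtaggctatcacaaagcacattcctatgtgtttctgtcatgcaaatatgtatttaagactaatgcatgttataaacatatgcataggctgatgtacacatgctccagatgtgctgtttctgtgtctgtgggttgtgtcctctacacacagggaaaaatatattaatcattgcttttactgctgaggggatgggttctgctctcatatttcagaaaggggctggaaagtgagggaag

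Another 3 promoters belong to windows described in the comparisons between groups. Tmem200c, a transmembrane protein gene at chr17:68836886-68837185 on the plus strand, holds 28 CG and passed the test between LS and G1, with limits given below. Fstl5, a follistatin-like secreted protein at chr3:76074311-76074610 on the plus strand, holds 15 CG. Among isolated windows it had the smallest adjusted p between 4HT and EtOH (0.232 in limma) but did not pass, and neither did Lifr. Lifr, the receptor subunit for leukaemia inhibitory factor, which sustains self-renewal of mouse embryonic stem cells, lies at chr15:7129322-7129621 on the plus strand and holds 53 CG.
Tmem200c: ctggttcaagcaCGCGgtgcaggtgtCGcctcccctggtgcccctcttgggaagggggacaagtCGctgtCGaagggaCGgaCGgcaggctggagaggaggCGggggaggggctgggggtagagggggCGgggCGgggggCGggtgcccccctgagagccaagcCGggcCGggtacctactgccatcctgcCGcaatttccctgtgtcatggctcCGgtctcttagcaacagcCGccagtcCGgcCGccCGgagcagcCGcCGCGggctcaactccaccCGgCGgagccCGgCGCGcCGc
Fstl5: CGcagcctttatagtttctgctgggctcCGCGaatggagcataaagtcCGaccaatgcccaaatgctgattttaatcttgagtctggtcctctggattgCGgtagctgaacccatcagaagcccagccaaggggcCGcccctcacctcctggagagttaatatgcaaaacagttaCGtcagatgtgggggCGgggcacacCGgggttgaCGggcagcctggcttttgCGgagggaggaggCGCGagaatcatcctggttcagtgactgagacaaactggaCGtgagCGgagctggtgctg
Lifr: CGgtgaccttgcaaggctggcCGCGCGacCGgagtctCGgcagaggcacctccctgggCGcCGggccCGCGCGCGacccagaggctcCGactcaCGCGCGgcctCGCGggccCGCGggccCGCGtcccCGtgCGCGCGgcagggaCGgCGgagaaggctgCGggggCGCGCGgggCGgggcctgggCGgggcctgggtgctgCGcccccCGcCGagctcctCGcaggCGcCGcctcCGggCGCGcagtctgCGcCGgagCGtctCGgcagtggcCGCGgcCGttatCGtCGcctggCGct

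The deposited signal is coverage scaled to library size, as a mean over those bases of a window that any read covers. The smallest value in each column was taken as the worth of 1 read, and a level below is a signal divided by it, so that a level of 1 means that reads did not overlap. A window or region without a value was taken to have no read, and a longer stretch of thin coverage lowers the average. That reading of missing values could not be checked against the reads themselves. The window overlapping Rn18s-rs5 and AY036118 had a value in all 8 columns, but its 3 accessible regions had none in any column. A missing value may thus not always mean that no read was present. The depth implied by the 1-read value came to 6.78, 9.75, 11.1 and 8.87 M reads in 4HT (G1, ES, LS, G2) and to 9.96, 8.38, 8.17 and 11.2 M in EtOH. The labelled cell type was checked at start sites: 10 embryonic stem cell markers had a median level of 1.87 (1.25 to 2.73) and 0 of them was isolated, while 9 measured fibroblast markers had a median of 1.17 (1.11 to 1.65), of which 2 were isolated. The window of Foxd3, which was not isolated, had signals of 0.243, 0.158, 0.141 and 0.169 in 4HT (G1, ES, LS, G2), against 0.153, 0.195, 0.155 and 0.110 in EtOH, and accessibility does not check the depletion of the protein.

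Isolated windows were read about as often as the other windows but carried less signal. A read in every column was found for 2280 members (96.7%), against 96.1% of the other windows, and in single columns 98.6% to 99.6% of the members had a read, against 97.5% to 98.1%. Of the 79 members without a read in at least 1 column, 5 had none in any column. The mean level over the 8 columns had a median of 1.15 (quartiles 1.10 and 1.25) in members read in every column, against 1.28 (1.17 and 1.496) in the other windows. A level of at least 2 was reached by 58 members (2.46%), against 6.79% of the other windows, and a level of at least 3 by 6 members.

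The lower level held in each of the 8 columns. For 4HT the median level of isolated windows was 1.10, 1.14, 1.21 and 1.14 in G1, ES, LS and G2, against 1.20, 1.31, 1.36 and 1.27 for the other windows. For EtOH it was 1.15, 1.11, 1.13 and 1.20, against 1.295, 1.25, 1.24 and 1.37. Between 13.2% and 32.5% of the members stood at the 1-read value in a column, against 6.19% to 16.8% of the other windows, and this share was highest in 4HT G1, the shallowest column. The quartile ranges of both groups of windows overlapped in every column.

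**Figure D1:**
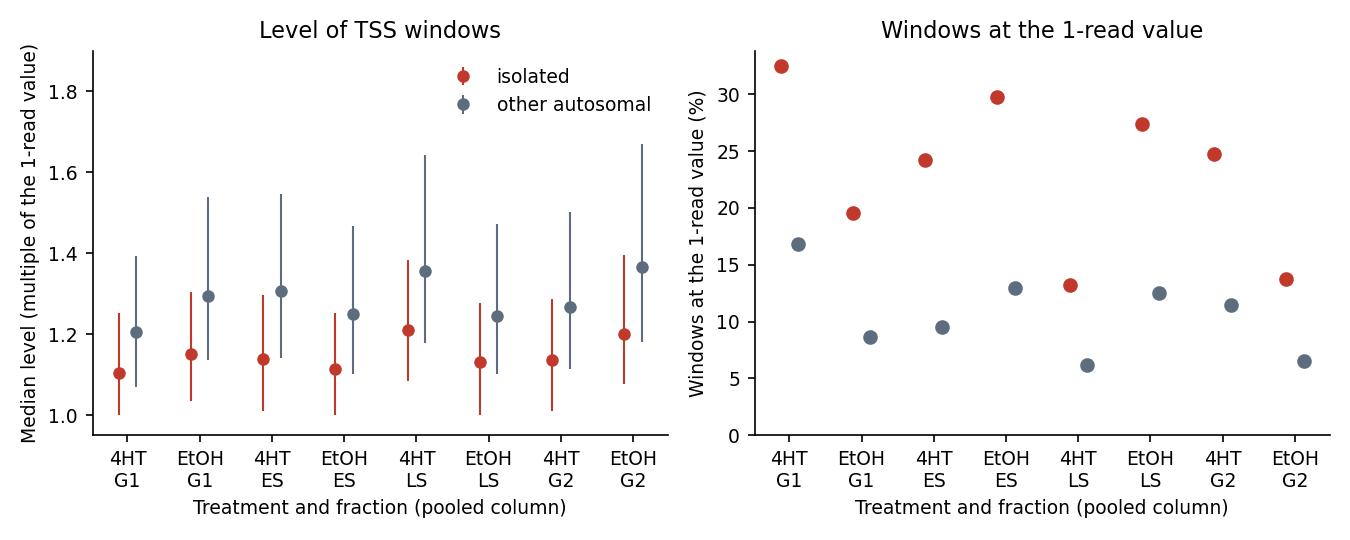
Median level of TSS windows with quartiles (left, multiple of the 1-read value) and share of windows at the 1-read value in percent (right), for isolated windows (red) and other autosomal windows (grey) in each treatment and fraction. The isolated medians lie between 1.10 and 1.21 and are below those of the other windows in 8 of 8 columns.

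Over the range of distances the level declined as windows lay farther apart. The median level of all autosomal windows was 1.51 under 1 kb from the nearest window, 1.21 at 50 to 100 kb, 1.16 at 100 to 200 kb, 1.13 at 200 to 500 kb and 1.12 beyond 500 kb. Windows named after a protein-coding gene had medians of 1.58 under 1 kb and 1.29 at 50 to 100 kb, and then 1.27, 1.22 and 1.16 in the 3 isolated ranges. Windows without a protein-coding start lay at 1.2995 under 1 kb and 1.16 at 50 to 100 kb, and at 1.13, 1.12 and 1.12 in the isolated ranges.

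Beyond 50 kb the share of windows that hold a deposited accessible region moved in opposite ways in these classes. At 10 to 50 kb, 65.7% of the protein-coding windows overlapped a region, the lowest share of any distance. At 50 to 100 kb, 76.8% of them did, and 80.3% of 608, 81.8% of 203 and 87.5% of 24 did in the 3 isolated ranges. Among windows without a protein-coding start it was 32.0% at 50 to 100 kb, and 24.9%, 18.4% and 12.5% in the isolated ranges. Just inside the limit of isolation, the windows overlapping Cep112 and Ttll5 lay 100016 and 100027 bp from their neighbours and had levels of 1.16 and 1.26. Just outside the limit, a pair of windows on chromosome 9 lay 99983 bp apart, at 1.03 for the unnamed one and 1.06 for the one overlapping Nmnat3.

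**Figure D2:**
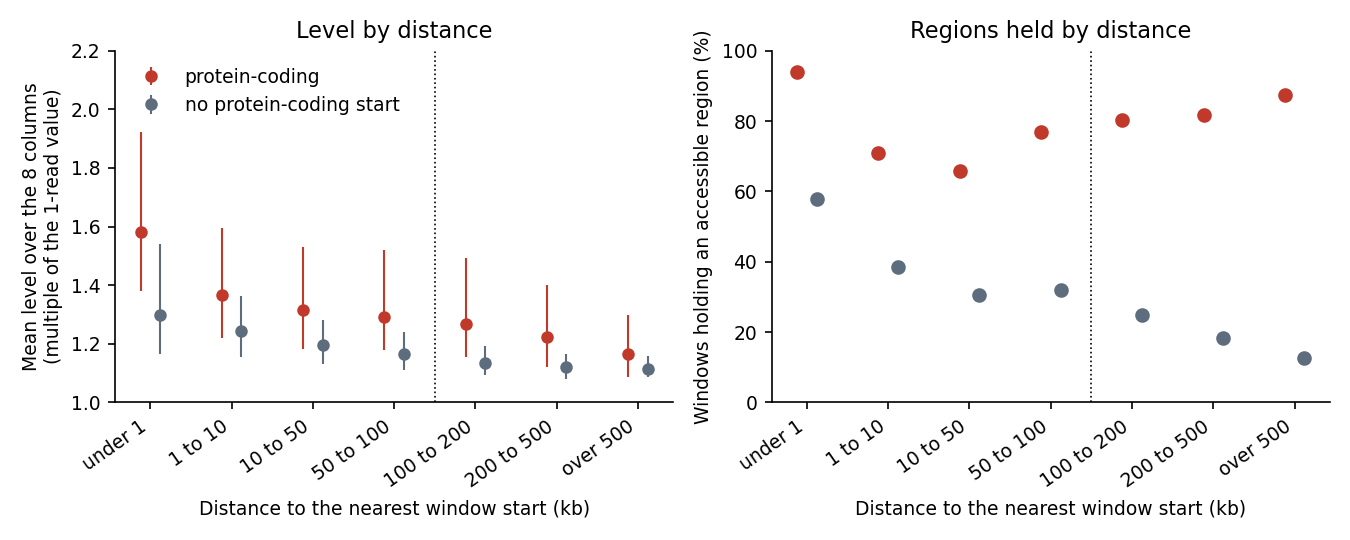
Mean level over the 8 columns with quartiles (left, multiple of the 1-read value) and share of windows holding an accessible region in percent (right) by distance to the nearest window start in kb, for windows named after a protein-coding gene (red) and windows without a protein-coding start (grey). The dotted line marks the limit of isolation, to the right of which the protein-coding medians are 1.27, 1.22 and 1.16.

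Windows were named from RefSeq when an annotated start fell no more than 500 bp from a reference point, set 150 bp beside the centre of the window. Such a start was found at 1670 members (70.8%), against 78.4% of the other windows. The windows are not the whole annotation: 945 members (40.1%) had another RefSeq start with a known strand within 100000 bp, and 207 (8.77%) had another protein-coding one. Chromosome 18 had the highest share of isolated windows at 12.6%, followed by chromosome 3 at 11.4% and chromosome 1 at 10.6%, and chromosome 11 had the lowest at 2.68%.

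Protein-coding genes made up less of the isolated windows, and small RNA genes and pseudogenes more. Protein-coding genes named 835 members (35.4%), against 55.0% of the other windows. Small RNA genes named 372 (15.8%), against 7.29%, and pseudogenes 349 (14.8%), against 9.98%. A further 107 members were named after long noncoding RNAs, and 689 (29.2%) had no RefSeq start, against 21.6% of the other windows. Of those 689, 59.1% overlapped an annotated gene at least in part, against 75.6% of the other windows without a RefSeq start.

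Each of these classes had a lower median level when isolated. Protein-coding windows had a median of 1.25 when isolated, against 1.38 elsewhere, and long noncoding RNAs 1.15, against 1.25. Pseudogenes stood at 1.12, against 1.18, small RNAs at 1.12, against 1.21, and windows without a RefSeq start at 1.14, against 1.23. Only the protein-coding class held an accessible region more often when isolated, in 80.8% of windows, against 74.1%. In each length class of these genes over 10 kb the order was reversed, as given below. In long noncoding RNAs the share was 38.3%, against 60.9%, in pseudogenes 13.2%, against 22.7%, and in small RNAs 15.1%, against 31.4%. Over all classes, 1012 members (42.9%) held a region, against 57.1% of the other windows.

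The isolated protein-coding genes were long. Their median length was 93743 bp, against 16520 bp for genes at other windows, and 25.9% of them exceeded 200 kb, against 3.12%. Level and length were not in a fixed order. Isolated genes under 10 kb had a median level of 1.17 and those of 10 to 50 kb 1.28, those of 50 to 200 kb 1.29 and those over 200 kb 1.22. At other windows the same length classes stood at 1.2997, 1.42, 1.41 and 1.31. A region was held by 61.3%, 75.7%, 85.5% and 87.0% of the isolated windows in these classes, against 56.9%, 81.0%, 90.3% and 93.4% of the others. Isolated windows thus held a region more often only at genes under 10 kb.

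Isolated protein-coding promoters were at least as rich in CG as the others. A promoter sequence was available for 666 isolated and 14665 other protein-coding windows. The isolated promoters had a median GC share of 60.3%, against 57.3%, a median of 17 CG in 300 bases, against 15, and a median ratio of observed to expected CG of 0.66, against 0.64. The motif TATAAA, searched on the gene's strand from 40 to 16 bases before the start, occurred in 10 of the 666 isolated promoters, against 2.95% of the others and 1.99% of all 32851 RefSeq promoters. Across windows the ratio of observed to expected CG ran with the level, with a Spearman rank correlation of 0.54 over isolated and 0.58 over other promoters, a description over windows that share libraries and depth.

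Within each class of CG content the isolated windows again had the lower median level. At a ratio under 0.35 the median level was 1.13 in 154 isolated promoters, against 1.19 elsewhere. At 0.35 to 0.65 it was 1.21 in 174, against 1.39, and above 0.65 it was 1.37 in 338, against 1.55. In each class the isolated median was lower in 8 of 8 columns. Regions were held by 38.3%, 82.8% and 97.3% of the isolated windows from the lowest to the highest class, against 29.1%, 86.2% and 98.4% of the others.

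The accessible regions at isolated promoters were longer and lower in level. In the 532 isolated and 10808 other windows of these that held a region with a value, the strongest one had a median length of 966 bp, against 758 bp elsewhere, and a median level of 1.51, against 1.91. At a CG ratio under 0.35 the strongest region had a median level of 1.20, against 1.43, and a length of 441 bp, against 336.5 bp. At 0.35 to 0.65 these were 1.40, against 1.76, and 867.5 bp, against 669 bp, and above 0.65 they were 1.63, against 2.09, and 1045 bp, against 840 bp. The strongest region was centred within 500 bp of the start site in 78.4% of the 532 isolated windows and in 79.3% of the 10808 others. From the lowest to the highest CG class it was 61.0% (of 59), 72.2% and 84.2% when isolated, against 41.6%, 76.3% and 87.7%. The order in the lowest class was thus opposite to that in the higher classes. Since the signal is an average over covered bases, a longer region can carry a lower level at an equal number of reads, and the part of length in the level was not tested.

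**Figure D3:**
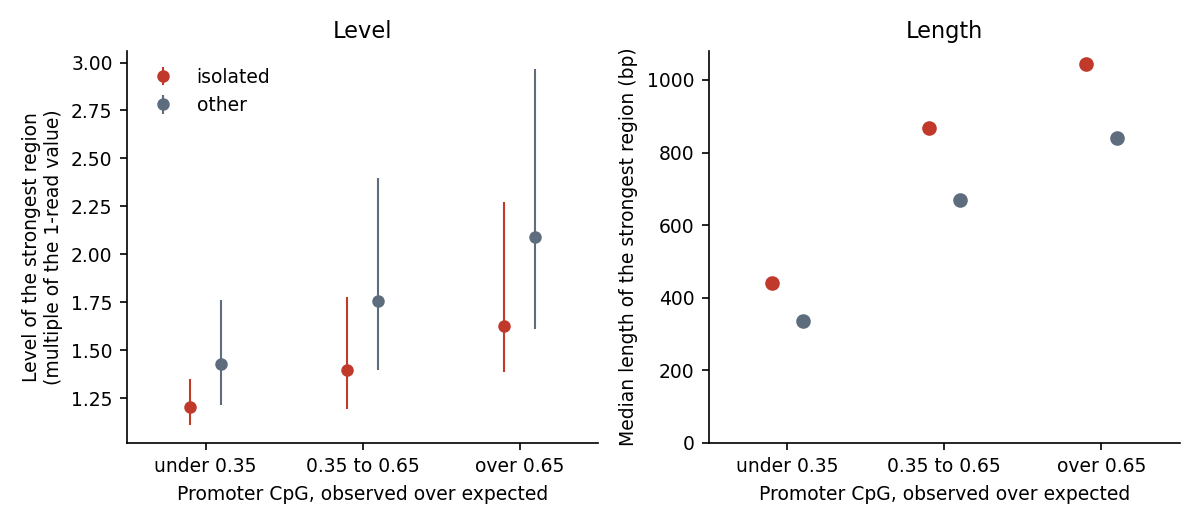
Level of the strongest accessible region with quartiles (left, multiple of the 1-read value) and its median length in bp (right) at protein-coding windows, by the promoter's ratio of observed to expected CG, for isolated (red) and other (grey) windows. In all 3 classes the isolated median level is lower (1.20, 1.40 and 1.63) and the region longer.

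A small set of isolated windows held many regions. At least 5 regions were held by 12 members (0.509%), against 0.236% of the other windows, and these were picked out after their values were seen. Cdk6, a cyclin-dependent kinase of the G1 phase, and Sox11, a transcription factor of neural progenitors, held 7 each at levels of 1.57 and 1.3003. Epha4, a receptor of ephrins, held 6 at 1.47 and Efna5, one of its ligands, 6 at 1.302. Twist2, a mesenchymal transcription factor, held 6 at 1.16 and Tac1, the precursor of substance P, 6 at 1.08, so a high number of regions came with levels close to 1 as well.

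Gene lists show which kinds of genes were isolated. Among all 17679 protein-coding genes with an autosomal window, 834 (4.72%) were isolated. The lists hold kinds of genes known to lie in gene-poor DNA, so their shares are no independent evidence. Of the genes of synaptic adhesion and axon guidance, 20 of 41 (48.8%) were isolated, of channels and neurotransmitter receptors 14 of 35, of glycan-modifying enzymes 11 of 27 (40.7%), and of cadherins outside the clusters 5 of 17 (29.4%). Of developmental transcription factors 16 of 63 (25.4%) were isolated, and of secreted ligands and inhibitors 11 of 51 (21.6%). None of 20 naive pluripotency genes was isolated, and their windows had a median level of 1.63.

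The adhesion and guidance genes had the lowest median level of these lists. All 20 of their isolated windows held an accessible region, which was not particular to this list. All 5 isolated cadherins, all 11 ligands and inhibitors and all 11 glycan-modifying enzymes did as well. So did 13 of 14 channels and receptors and 15 of 16 developmental transcription factors, but 1 of 3 fibroblast genes. Among all isolated protein-coding windows the share was 80.8%. The 20 adhesion and guidance windows had a median level of 1.12, against 1.22 for the list's other windows. The level needed for testing was reached by 3 of them. Csmd1, a transmembrane protein that regulates complement, stood highest at 1.35, with signals of 0.181, 0.185, 0.106 and 0.136 in 4HT (G1, ES, LS, G2), against 0.132, 0.173, 0.141 and 0.130 in EtOH. Dscam, a neuronal recognition molecule, stood at 1.34 and Robo1, the receptor of the guidance cue Slit, at 1.301. The isolated cadherins had a median of 1.14, against 1.29 elsewhere, with Pcdh17 at 1.46 and Cdh6 at 1.22. Channels and receptors stood at 1.17, against 1.19, led by Ryr2, a calcium release channel, at 1.496 and Htr1a, a serotonin receptor, at 1.23.

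Regulators of development and enzymes that build glycans reached higher levels. Isolated developmental transcription factors had a median of 1.25, against 1.27 for the list's other windows, and 5 of 16 could be tested. Sall1, a zinc finger factor, stood at 1.69 (1.44 to 2.30 over the columns). Secreted ligands and inhibitors had a median of 1.21, against 1.23, with Vegfc, a ligand of lymphatic growth, at 1.93 (1.51 to 2.82) and Sfrp1, an antagonist of Wnt, at 1.49. Glycan-modifying enzymes stood at 1.28, against 1.25, with the sulfotransferases Chst2 at 1.58 and Hs6st1 at 1.53. Of 14 fibroblast genes, 3 were isolated: Twist2 at 1.16, Col3a1 at 1.13 and Postn, a matrix protein, at 1.11.

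The most isolated named genes encode cell surface proteins and differed in level. Gpc6, a glypican, lay 1053719 bp from the nearest window at a level of 1.43, and Pcdh17 lay 1037932 bp away at 1.46. Pcdh17 had signals of 0.186, 0.135, 0.148 and 0.196 in 4HT (G1, ES, LS, G2), against 0.125, 0.172, 0.150 and 0.161 in EtOH, and the groups overlap. Cntnap2, 977715 bp away, had 0.152, 0.103, 0.0903 and 0.118 in 4HT, against 0.103, 0.119, 0.122 and 0.105 in EtOH. That is a mean level of 1.04 with 4 of 8 columns at 1 read, although its window overlapped 3 regions. Cdh19, a cadherin of Schwann cell precursors 887537 bp away, stood at 1.05 and Robo1, 760110 bp away, at 1.301. The widest distance of all, 1394753 bp, belonged to a window overlapping Rbfox1, a neuronal splicing factor, at a level of 1.10.

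The highest levels among isolated windows were at protein-coding genes of varied function. Tle4 stood at 3.97, with signals of 0.410, 0.351, 0.539 and 0.288 in 4HT (G1, ES, LS, G2), against 0.395, 0.411, 0.530 and 0.479 in EtOH, and the 2 treatments overlap. One region of 1031 bp over its start had a level of 7.26. Inpp5a, an inositol phosphate phosphatase, followed at 3.70 with a region at 8.87, and Sp4, a zinc finger factor that binds GC boxes, at 3.57 with a region at 5.76. Sh3bp4, a regulator of endocytosis, stood at 3.38, Paqr3, a Golgi protein that tethers Raf kinases, at 3.03, and Arrdc4, an arrestin-related protein, at 2.93. Below them came Myh10, a nonmuscle myosin heavy chain, at 2.81, Rps6ka2, a ribosomal S6 kinase, at 2.78 and Stxbp5l, a SNARE regulator, at 2.73. A window overlapping the ribosomal RNA-related Rn18s-rs5 and AY036118 exceeded them all at 14.3 and is described with the fractions.

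MicroRNA genes were few among the isolated windows. Of 29 isolated windows named after a microRNA, 28 were read in every column, 11 held a region and 4 could be tested. A region was held by 42.9% of all members and by 15.1% of the isolated small RNA windows. The share with a region was not computed for the other microRNA windows. Their median level was 1.10 (1.02 to 1.82), against 1.23 for 613 other microRNA windows. Mir148a stood highest at 1.82, with signals of 0.277, 0.193, 0.102 and 0.199 in 4HT (G1, ES, LS, G2), against 0.251, 0.200, 0.229 and 0.164 in EtOH. Mir28b followed at 1.70, Mir3067 at 1.32 and Mir3092 at 1.302, whereas Mir218-1 and Mir218-2, a pair that gives the same mature miR-218-5p, stood at 1.09 and 1.10. The mature sequences of the highest microRNAs and of this pair are given from RefSeq, 5′ to 3′, with the seed (bases 2 to 8) in capitals, and among those printed no other 2 genes share a seed.
miR-148a-3p: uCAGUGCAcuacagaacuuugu
miR-28b: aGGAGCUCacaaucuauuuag
miR-3067-5p: aGUUCUCAggcccgcuguggugu
miR-3092-3p: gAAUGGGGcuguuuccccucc
miR-218-5p: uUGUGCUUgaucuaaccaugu

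Differences between groups could be tested in 435 members (18.4%), against 44.8% of the other windows, namely those read in every column with a mean level of at least 1.3. The other 1924 members were not tested, 1845 of them because of the level, and a window that lost every read in a column was left out as well. The mean took in all 8 columns, so a window near 1.3 could enter through the columns in which it was high. Of the 435 windows, 347 belonged to protein-coding genes. With limma, treatment and fraction were fitted together to log2(signal + 0.1) of all 15323 tested windows. A treatment difference was thus repeated over the 4 fractions, and a fraction difference over the 2 treatments. The p-values reflect how pooled columns scatter, not how cultures do, and fold changes of low windows are understated. A call was a Benjamini-Hochberg adjusted p under 0.05 over all tested windows.

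Between 4HT and EtOH, 0 isolated windows passed the test, where the share called among all tested windows was 0.0131% (0.00653% higher and 0.00653% lower). The smallest adjusted p in limma was 0.232. An unadjusted p under 0.05 was found for 30 isolated windows (6.90%), against 5.28% of all tested windows. A difference above 0 was found in 214 (49.2%), against 50.2%, and the differences had a median of -0.00 on the log2 scale, with 90% of them between -0.15 and 0.17. The 4 fractions gave the same sign in 61 members (14.0%), against 12.9% of all tested windows. Within single fractions, where no test was possible, differences beyond 0.5 were found in 9, 6, 7 and 10 members in G1, ES, LS and G2 (2.07%, 1.38%, 1.61% and 2.30%), against 1.40%, 0.959%, 1.32% and 0.894% of all tested windows.

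Fstl5 had the widest positive difference among named genes with 1 sign over the 4 fractions. A window without a gene name, overlapping Gm40864, had a wider one at 0.36. Fstl5 had signals of 0.194, 0.154, 0.190 and 0.188 in 4HT (G1, ES, LS, G2), against 0.113, 0.119, 0.129 and 0.116 in EtOH. The lowest 4HT column lay above the highest EtOH column. However, 1 read was worth 0.147 in 4HT G1, above every EtOH signal of Fstl5, so that column could not fall among them. In levels, 4HT ran from 1.31 to 2.10 and EtOH from 1 to 1.296. The 4HT columns thus carried the window over the minimum of 1.3, a filter drawn from the same values. The fitted log2 difference was 0.33 with a standard error (SE) of 0.08 and an adjusted p of 0.232 in limma, and in the single fractions it was 0.20, 0.30, 0.51 and 0.30. Its region, chromosome 3, 76074088 to 76074802, had signals of 0.210, 0.214, 0.257 and 0.287 in 4HT, against 0.1004, no value, 0.141 and 0.126 in EtOH.

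The next positive differences were smaller and did not pass either. Cemip2, a cell surface protein of hyaluronan turnover, had a log2 difference of 0.26 and Fign, a microtubule-severing ATPase, 0.26 with an adjusted p of 0.674 in limma. Fign had signals of 0.181, 0.180, 0.122 and 0.189 in 4HT (G1, ES, LS, G2), against 0.101, 0.128, 0.125 and 0.121 in EtOH. Its LS column in 4HT fell within the EtOH values, although the centred difference in LS was 0.15. In levels, Fign ran from 1.23 to 1.75 in 4HT and from 1.01 to 1.35 in EtOH. Its mean level of 1.31 lay at the minimum for testing, and the 4HT columns carried it over. Rassf3, a Ras-association domain protein, had 0.24 and Ccny, a membrane-bound cyclin, 0.22. In single fractions Rassf3 had 0.02, 0.57, 0.07 and 0.30 (G1, ES, LS, G2).

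The widest negative difference with the same sign in all fractions, -0.38 (adjusted p 0.94 in limma), was that of the window overlapping Rn18s-rs5 and AY036118. Of the named genes, Arrdc4 stood at -0.31 and Lifr at -0.29 (SE 0.09, adjusted p 0.787 in limma). Lifr had signals of 0.175, 0.151, 0.138 and 0.163 in 4HT (G1, ES, LS, G2), against 0.242, 0.224, 0.215 and 0.163 in EtOH, so that the treatments met in G2. The region over its start, chromosome 15, 7129172 to 7130020, had 0.147, 0.147, 0.203 and 0.236 in 4HT, against 0.409, 0.300, 0.251 and 0.301 in EtOH. Daam1, a formin of planar cell polarity signalling, had -0.22, Slc12a2, a cotransporter of sodium, potassium and chloride, -0.21, and Lrif1, a chromatin protein that binds HP1, -0.19. The fractions contributed unequally. Slc12a2 had -0.0008 in ES, and its G1 column in 4HT stood at 1 read. Lrif1 had -0.56 in G2 and between -0.05 and -0.08 in the other fractions. None of these windows passed the test.

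**Figure D4:**
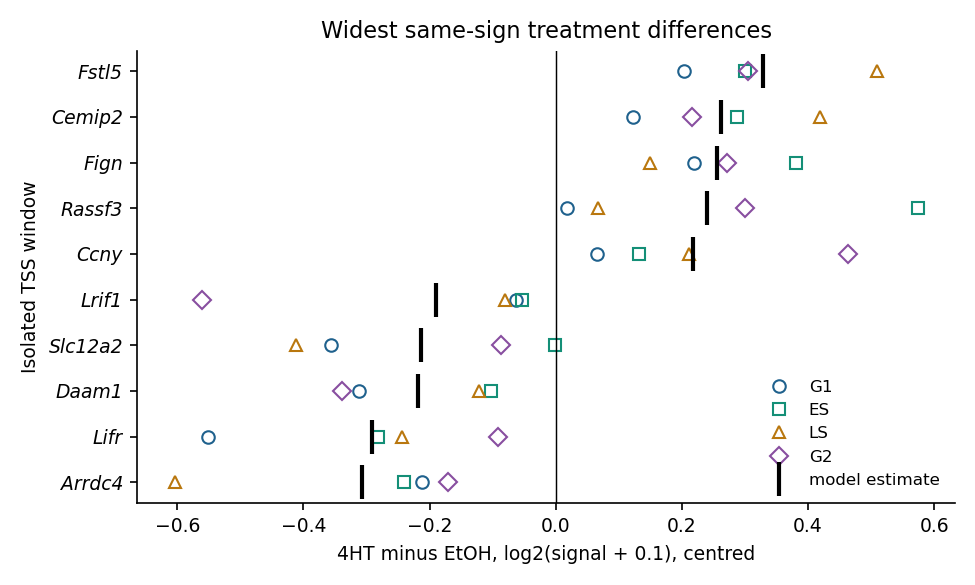
Difference of 4HT minus EtOH in centred log2(signal + 0.1) at the 10 isolated windows named after a gene with the widest differences of the same sign in all fractions (5 each way, predicted genes left out), with a symbol for each fraction and a bar for the model estimate. Fstl5, at the top, has an estimate of 0.33 and Arrdc4, at the bottom, one of -0.31, and none passed the test.

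Between ES and G1, 0 isolated windows passed the test, where 0.0196% of all tested windows did (0% higher and 0.0196% lower), and the smallest adjusted p was 0.299. An unadjusted p under 0.05 was found for 37 (8.51%), against 6.78%. The difference was above 0 in 184 isolated windows (42.3%), against 50.3% of all tested windows, with a median of -0.03, against 0.00, and a median of -0.03 within 4HT and -0.03 within EtOH. Among named genes with the same sign in both treatments, Cobl, an actin nucleator, had the widest positive difference at 0.50, with Slc6a6, a taurine transporter, at 0.42 and Immp2l, a mitochondrial peptidase, at 0.34. Arrdc4 had the widest negative one at -0.54, with only the predicted Gm3993 lower at -0.65, followed by Ppp3ca, the catalytic subunit of calcineurin, at -0.47 and Ice1, a subunit of the little elongation complex, at -0.44. Cobl had signals of 0.221 and 0.168 in ES and G1 of 4HT, and of 0.276 and 0.146 in ES and G1 of EtOH, but its adjusted p was 0.299 in limma.

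Between LS and G1, 3 isolated windows passed the test, 2 of them higher and 1 lower in LS, where 0.0718% of all tested windows did (0.0196% higher and 0.0522% lower). An unadjusted p under 0.05 was found for 45 (10.3%), against 6.90%, and a difference above 0 was found in 239 (54.9%), against 50.1%. Gm10476, a predicted gene at chromosome 12, 22464657 to 22469656, had signals of 0.147, 0.103, 0.215 and 0.172 in 4HT (G1, ES, LS, G2) and of 0.111, 0.119, 0.243 and 0.1001 in EtOH. LS was the highest fraction in both treatments, and 3 of the 8 columns stood at 1 read. By depth, LS was the highest column in 4HT and the lowest in EtOH. The log2 difference of LS minus G1 was 0.62 (SE 0.11, adjusted p 0.00554 in limma), or 1.53-fold on the scale of signal + 0.1. The window overlapped 0 accessible regions. With the values as deposited, without centring, 0 of the 3 windows passed between LS and G1, and with a mean level of at least 2 only 1 was tested and passed.

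Tmem200c, at chromosome 17, 68834487 to 68839486, showed the same order. Its signals were 0.149, 0.103, 0.187 and 0.127 in 4HT (G1, ES, LS, G2) and 0.1004, 0.132, 0.241 and 0.101 in EtOH. LS exceeded G1 by a log2 difference of 0.58 (SE 0.10, adjusted p 0.00554 in limma), with 0.52 in 4HT and 0.65 in EtOH. Its region of 1035 bp had 0.151, 0.103, 0.217 and 0.123 in 4HT and 0.1004, 0.136, 0.192 and 0.0926 in EtOH, highest in LS. The region lies inside the window, so its values are no second observation. With a mean level of 1.301 the window lay at the minimum for testing, and 2 columns stood at 1 read. Its level was 2.07 and 1.97 in LS (4HT, EtOH) and at most 1.13 in every other column. Gm10476 had 2.38 and 1.99 in LS and at most 1.53 elsewhere. The LS columns thus carried both windows over the minimum of 1.3. Filter and comparison used the same values, so these 2 calls are no independent support for a difference. Other windows with wide differences did not pass: Med30, a Mediator subunit, had 0.43 and Fam189a1 0.42, while Paqr3 had -0.56, Ptpn13, a tyrosine phosphatase, -0.47 and Mir148a -0.47 (-0.68 in 4HT and -0.26 in EtOH).

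Between G2 and G1, 1 isolated window passed the test, higher in G2, where 0.0457% of all tested windows did (0.0261% higher and 0.0196% lower). An unadjusted p under 0.05 was found for 33 (7.59%), against 5.64%, and a difference above 0 was found in 234 (53.8%), against 50%. The called window overlaps Rn18s-rs5 and AY036118 at chromosome 17, 39846478 to 39851477, and was also the one called lower in LS. Its signals were 0.634, 0.301, 0.250 and 3.56 in 4HT (G1, ES, LS, G2) and 0.678, 0.524, 0.374 and 5.22 in EtOH. G2 was the highest and LS the lowest fraction in both treatments. The log2 difference of G2 minus G1 was 2.55 (SE 0.19, adjusted p 6.89e-13 in limma), or 5.87-fold, and that of LS minus G1 was -0.96 (SE 0.19, adjusted p 0.0196 in limma). The call between LS and G1 was lost with a pseudocount of 0.5 (-0.54, adjusted p 0.403), whereas that between G2 and G1 held under each alternative run. Ribosomal RNA sequence exists in many near-identical copies, so reads cannot be placed at this window with certainty, and its 3 accessible regions have no value in any column of the region table.

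The remaining named windows did not pass between G2 and G1. The 5S ribosomal RNA-related pseudogene n-R5s88 had a log2 difference of 0.52 (adjusted p 0.83 in limma), with 0.97 in 4HT and 0.08 in EtOH. Its signals in G2 and G1 were 0.326 and 0.147 in 4HT and 0.116 and 0.110 in EtOH. The level of n-R5s88 was 2.89 in G2 of 4HT and at most 1.29 in every other column. That column thus carried the window over the minimum of 1.3, and filter and comparison used the same values. Sh3bp4 had 0.38 and Xylt1, a xylosyltransferase that starts proteoglycan chains, 0.33. Slc39a10, a zinc importer, had -0.41, Cand1, an exchange factor of cullin ligases, -0.34 and Afap1l2, an actin filament-associated adaptor, -0.33. Afap1l2 had -0.64 in 4HT and -0.03 in EtOH. Its level was 1.99 in G1 of 4HT and at most 1.48 elsewhere, with a mean of 1.31, so G1 of 4HT carried it over the minimum.

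**Figure D5:**
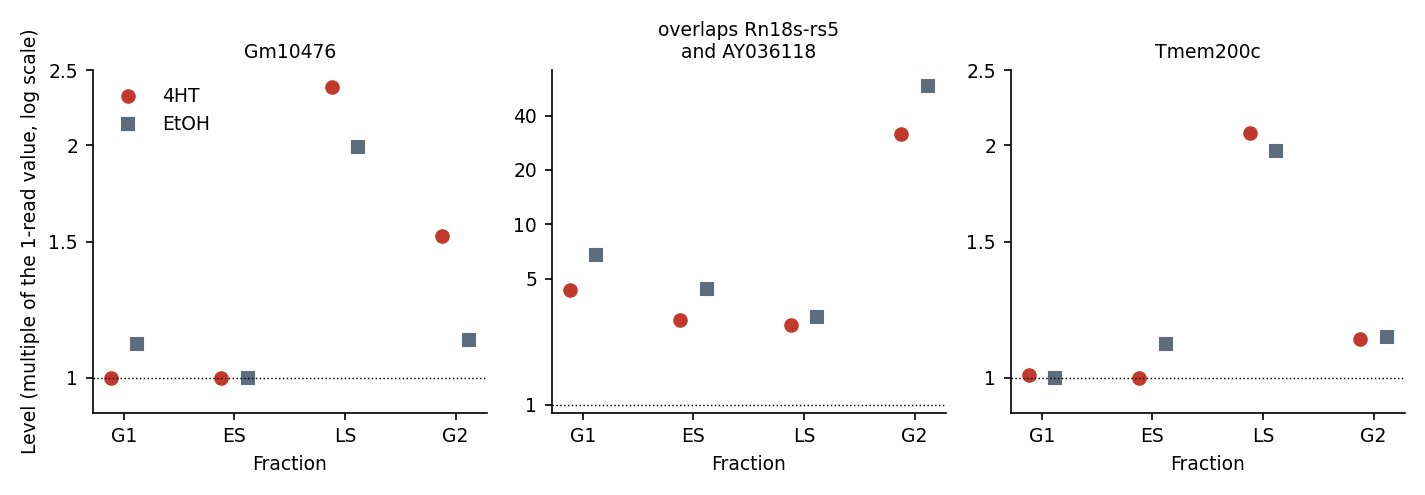
Level (multiple of the 1-read value, log scale) in each fraction for 4HT (red circles) and EtOH (grey squares) at the 3 isolated windows that passed a test between fractions, with the 1-read value dotted. Gm10476 and Tmem200c are highest in LS, at 2.38 and 2.07 in 4HT, and the window overlapping Rn18s-rs5 and AY036118 is highest in G2, at 31.6 in 4HT and 58.3 in EtOH.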

How the data were processed

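ATAC-seq was run on 16 libraries, 2 for each of 8 groups. Per the file headers, the deposited tables hold a coverage signal in 8 columns of merged replicates, 1 for each group, with no replicate numbers. The submitters' processing notes name build mm10 and, without saying what for, featureCounts and DESeq2. Which aligner and coverage program were used is not given in the sources used here. The deposited coverage signal was read as CPM-scaled coverage averaged over covered bases, from its shared smallest value in each column.

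From it, 34 duplicate rows of 38087 were dropped, and levels, distances and overlaps (1 bp or more) with 127646 accessible regions were computed (Python 3.11.15, pandas 2.3.3). Windows read in all 8 columns at a mean level of at least 1.3 were transformed as log2(signal + 0.1), centred by cyclic loess and fitted in limma 3.58.1 (R 4.3.3) with treatment and fraction, an intensity trend and robust moderation, leaving 3 residual degrees of freedom. The script was tested on simulated data. Treatment within 1 fraction, and its interaction with fraction, have no test. Names and sequences came from RefSeq GRCm38.p6. Among genes over 10 kb with a known strand, 63.2% of the 5′ ends lay at a window's reference point, against 2.28% of the 3′ ends. A further 923 members were named without a known strand, and that check does not cover them. Sequences are not given for every gene.

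Members, gene lists and alternatives were chosen with earlier results of these data known. Named windows were the called ones, the 10 highest levels, the 5 widest same-sign treatment differences and the 3 widest same-sign fraction differences each way, the 5 most isolated, the 2 highest of each list and those beside the distance limit, passing over predicted symbols and, for differences and distance, windows without a gene name, outside calls. For each contrast and direction, 1 or 2 windows passed over had wider differences than the last one named. A list member that this rule names is not reported here. The microRNA genes and the windows with many regions were added after values were seen. Alternatives were other pseudocounts, levels, centrings, omitted fractions, distance limits and overlap rules.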

Additional observations from a re-analysis of the deposited data

How the results depend on the processing

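The counts of called isolated windows kept their size under other pseudocounts, without a minimum level, with median centring and without single fractions, except between LS and G1. There the count of 3 fell to 1 with a mean level of at least 2, which leaves Gm10476 and Tmem200c untested, and to 0 with the values as deposited, where the smallest adjusted p among isolated windows in limma was 0.336. As deposited, Gm10476 and Tmem200c had log2 differences of 0.52 and 0.49. The window overlapping Rn18s-rs5 and AY036118 no longer passed between LS and G1 with a pseudocount of 0.5 (-0.54, adjusted p 0.403), without a minimum level (-0.97, adjusted p 0.179), as deposited (-0.89, adjusted p 0.336) and with median centring (-0.82, adjusted p 0.157), and the cause was not tested. It passed between G2 and G1 under every alternative run. The median level of 1.15 was 1.25 with protein-coding windows alone, 1.18 with a distance limit of 50000 bp and 1.13 with 200000 bp. For single windows, 243 alternative values kept direction and side of the threshold, 6 lost the call and 0 reversed. Most of these values belong to windows that were not called in the main run, so the 243 say little about how stable the calls are. All 6 losses were among the 3 calls between LS and G1. No paired analysis was possible because the columns carry no replicate number. Depth limits the rest: up to 32.5% of the members stood at 1 read in a column, below which the signal cannot fall, so losses are understated.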
